A study of Mus musculus with 6 samples.

Results

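Immediate early genes are switched on within minutes of a stimulus, without new protein synthesis, when kinases of the MAP kinase and calcium or cyclic AMP pathways act on transcription factors already bound to their promoters. Many encode transcription factors themselves, and their mRNAs are short-lived because AU-rich sequences in the 3' UTR draw in decay factors such as ZFP36. In tissue they respond to growth signals and also to handling and dissection. The 10 genes described here were taken by name: the AP-1 subunits Fos, Fosb, Jun and Junb, the transcription factors Egr1, Nr4a1 and Atf3, and Zfp36, Btg2 and Ier2. All 10 were found among the 35527 genes to which reads were summed, and all 10 passed the filter on low counts that left 15805 genes to be tested.

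Whole pancreas was collected from C57BL/6 mice at day 1 after birth. The KO group held 3 mice with the genotype miR216a-/-, and the WT group held 3 wild-type mice, with 1 library from each mouse and numbers 1 to 3 that follow sample order only. The sources used here do not give how the allele was made, nor sex, litter and batch. The comparison of KO with WT asks how the newborn pancreas differs without miR-216a, a microRNA of the pancreas. Depth ran from 20565387 to 23028718 estimated reads per library, and the members held between 36 reads (Fosb in KO 1) and 1516 reads (Jun in KO 1). In bulk tissue, fewer cells of a type and less RNA per cell cannot be told apart.

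Mir216a itself was not analysed here, since mRNA libraries do not measure the mature microRNA, so the genotype labels were not checked on it. The tissue label was checked on markers. The 12 acinar genes summed to 230293, 289000 and 256040 CPM (read counts scaled to a common library size, with TMM factors) in KO libraries and to 229458, 183096 and 263987 CPM in WT libraries. Ins2, an insulin gene, ran from 2116 to 2291 CPM in KO and was 2810 CPM or more in WT. Of the 8 beta cell genes listed, 2 had a higher mean in KO and 6 a lower one, and 0 were called. Some libraries stood apart. WT 1 held RNA of liver markers, with Alb, the albumin gene, at 219 CPM, against 6.41 to 15.1 CPM in the other libraries. KO 2 and WT 1 held the most RNA of blood cells, with 4787 and 5940 CPM over 7 erythroid genes and 300.1 and 293 CPM over 8 neutrophil genes. In KO 1 the Y-linked gene Ddx3y stood at 0.141 CPM, against 61.8 to 102 CPM in the other 5 libraries. Eif2s3y stood at 0 CPM in KO 1, against 43.3 to 60.6 CPM. Uty stood at 0.848 against 12.6 to 20.3 CPM, and Kdm5d at 2.83 against 27.1 to 36.6 CPM. By these genes KO 1 would be from a female and the other 5 libraries from males, though the labels give no sex. The KO group would then mix the sexes.

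Sequences of the members were searched for short letters, with the share over a wider set of genes beside each count. The mature sequence of miR-216a-5p, from RefSeq (GRCm38.p6, chr11:28757018-28757039, plus strand), is printed because it is the RNA that the KO genotype is labelled as lacking, with the seed, bases 2 to 8, in capitals.
miR-216a-5p: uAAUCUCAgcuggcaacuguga
The longest annotated 3' UTR of each member was searched for the DNA letters that pair with this seed, as 8mer, 7mer-m8 and 7mer-A1 sites. Such a site was found in 0 of the 10 members and in 17.0% of the 15080 tested genes that have an annotated 3' UTR. The AU-rich pentamer ATTTA, the core that ZFP36 binds, was found in 9 of 10 members, with Ier2 as the exception, and in 69.9% of those genes. Its density was above the median of those genes, 1.31 per kb, in 8 of 10 members. It was highest in Nr4a1, at 5.52 per kb over a 3' UTR of 543 bases, and Fos, at 4.91 per kb over 815 bases, and lowest after Ier2 in Fosb, at 0.434 per kb over 2302 bases. The longer letters TTATTTATT, which contain ATTTA, were found in Fos and Zfp36, 2 of 10 members, and in 8.37% of the genes. Zfp36 mRNA thus holds letters of the kind that its own protein binds.

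RefSeq promoters were matched for 8 of the 10 members, all but Egr1 and Ier2. The 250 bases before each start were searched on both strands for the CArG box, which binds serum response factor, for the cyclic AMP response element TGACGTCA and its shorter form TGACG, which the full element also contains, for the AP-1 letters TGANTCA and for the EGR letters GCGNGGGCG. TGACG was found in 6 of 8 members and in 17.8% of 32851 promoters, and GCGNGGGCG in 4 of 8 members and 4.7% of promoters. The 32851 promoters were not limited to tested genes and were not matched to the members in base content, so the shares are only a rough background. The CArG box was found in Zfp36 alone among the 8, against 1.47% of promoters. The full TGACGTCA was found in Btg2 alone, against 1.55%, and TGANTCA in 0 of 8, against 6.75%. Letters farther than 250 bases before the start were not searched, so a gene without a match here, Fos included, may hold one farther away. Stretches are printed for Junb, Zfp36 and Btg2, which among the 8 had the largest log2 fold changes relative to their error, and for Fos, the family's best known gene. Capitals mark the letters of the CArG box, TGACG, TGACGTCA and GCGNGGGCG. Junb lies at chr8:84978749-84978928 on the minus strand, Btg2 at chr1:134079156-134079335 on the minus strand and Fos at chr12:85473710-85473889 on the plus strand (GRCm38.p6), and each ends at the base before the RefSeq start. For Zfp36 the 30 bases around the CArG box are given, at chr7:28379267-28379296 on the minus strand, since GENCODE places them within the 5' UTR of the longer transcript Zfp36-201.
Junb: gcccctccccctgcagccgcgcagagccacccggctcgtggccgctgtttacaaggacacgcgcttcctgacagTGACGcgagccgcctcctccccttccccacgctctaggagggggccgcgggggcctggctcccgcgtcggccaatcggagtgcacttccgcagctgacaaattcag
Zfp36: ccaggccgccCCATAAAAGGagaaagctcc
Btg2: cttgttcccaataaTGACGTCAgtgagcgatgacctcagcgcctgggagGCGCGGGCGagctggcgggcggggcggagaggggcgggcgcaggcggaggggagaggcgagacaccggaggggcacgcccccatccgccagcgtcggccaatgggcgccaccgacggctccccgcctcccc
Fos: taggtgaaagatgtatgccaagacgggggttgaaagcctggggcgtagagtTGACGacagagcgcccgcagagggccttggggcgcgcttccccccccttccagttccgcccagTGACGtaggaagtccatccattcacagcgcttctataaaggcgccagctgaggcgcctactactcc
In these stretches Fos holds TGACG at positions -129 and -66 before the start, Junb at -106, and Btg2 holds TGACGTCA from -166 to -159 with GCGNGGGCG from -131 to -123. The CArG box of Zfp36 runs from -58 to -49. These are matches of letters and not measured binding.

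Levels are compared between genes in TPM, which corrects for transcript length. Ier2, a nuclear regulator of transcription, and Jun were the most abundant members, with means over the 6 libraries of 29.3 and 26.8 TPM, above 82.2% and 80.3% of the tested genes. Btg2 followed at 19.8 TPM, Egr1 at 11.4, Junb at 10.3, Zfp36 at 7.26, Nr4a1 at 5.83, Fos at 3.33 and Atf3 at 2.83 TPM. Fosb was lowest at 0.796 TPM, above 9.66% of the tested genes. Each gene's range over the 6 libraries overlapped that of the next in this order, except for the step between Atf3, which did not fall below 2.07 TPM, and Fosb, which did not exceed 0.915 TPM. Fos RNA was present in every library, at a lower level than that of its partner Jun.

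**Figure D1:**
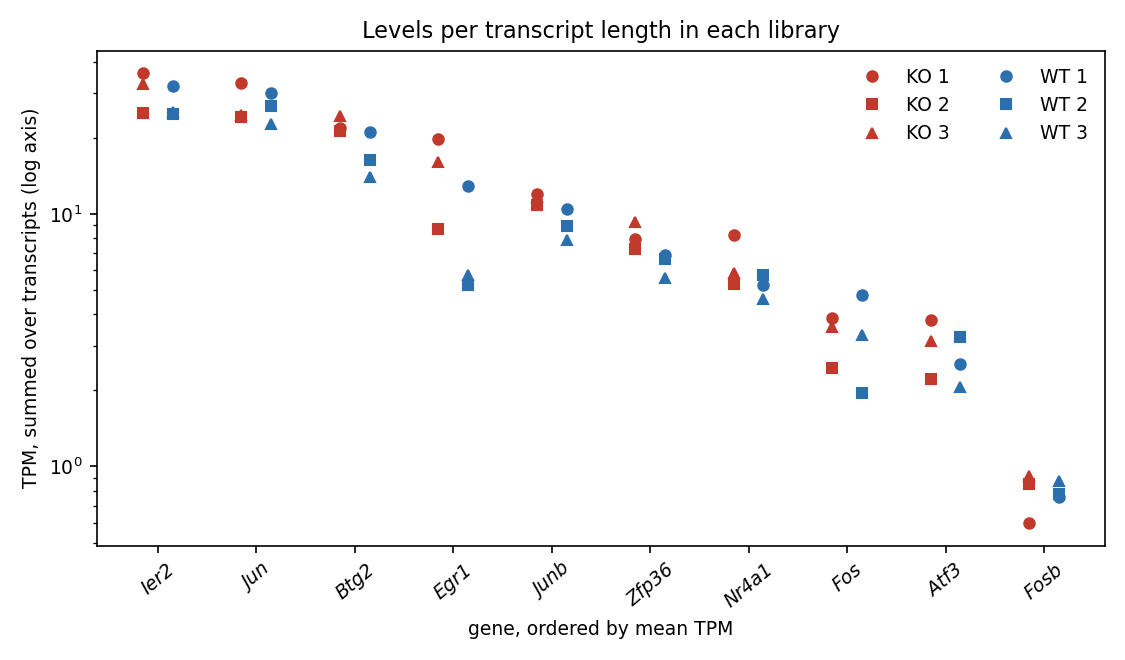
Levels of the 10 immediate early genes in TPM (log axis), ordered by their mean over 6 libraries, with KO libraries in red and WT libraries in blue. Ier2 and Jun sit near 30 TPM, Fosb below 1 TPM, and neighbours overlap except Atf3 and Fosb.

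None of the 10 members was called in KO against WT: 0 of 10 had an adjusted p under 0.05 in edgeR's quasi-likelihood test, where 0% of the tested genes were called in either direction. Without adjustment, 2 of 10, Zfp36 and Btg2, had p under 0.05 with a higher value in KO, and 0 with a lower value, against 5.62% and 7% of the tested genes. For 2 members, Junb and Zfp36, the lowest KO library exceeded the highest WT library, against 9.07% of the tested genes. The reverse held for 0 members, against 10.3%, so the groups were apart in 2 of 10 members, against 19.4% of the tested genes in either direction. DESeq2 called 0 of 10 members, against 3.13% of the genes it adjusted, and edgeR without KO 1 called 0 of 10, against 2.25%. The mean was higher in KO for 7 of 10 members, against 51.2% of the tested genes, with a median log2 fold change of 0.15 over the members and 0.0069 over the tested genes. The members share stimuli and libraries, so these are not 10 independent observations.

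**Figure D2:**
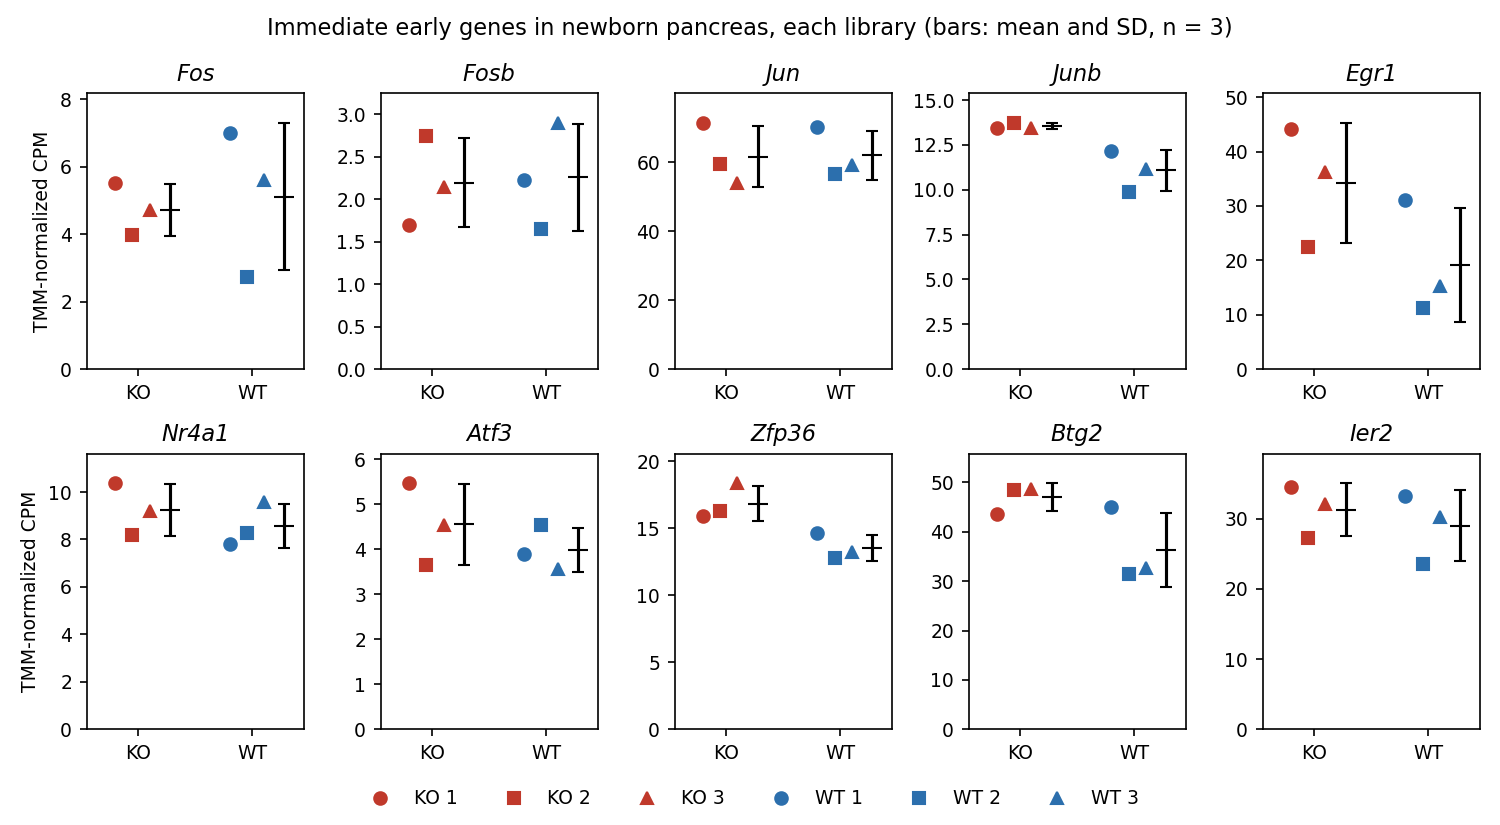
CPM of each immediate early gene in the 3 KO libraries (red) and the 3 WT libraries (blue), with the mean and SD of each group as black bars. The groups are apart for Junb and Zfp36 and overlap for the other 8 genes.

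AP-1 is a dimer of a FOS protein and a JUN protein, or of JUN proteins alone, that binds TGANTCA letters. Fos (chromosome 12, 85473890 to 85477273, plus strand; GRCm38, GENCODE M21) stood at 5.51, 3.96 and 4.70 CPM in KO 1 to 3 and at 7.01, 2.73 and 5.60 CPM in WT 1 to 3. KO values all lay inside the WT range, with WT 1 the highest and WT 2 the lowest library. Its log2 fold change was -0.11 ± 0.33 (SE), with a 95% interval from -0.88 to 0.66 and an adjusted p of 0.933 in edgeR. Without WT 1 it was 0.19, without KO 2 it was -0.00085, and with limma-voom on all libraries it was 0.016. Its sign thus depended on the library left out and on the method. The interval holds changes of more than 1.5-fold in either direction, so no statement of equal levels can be made for Fos.

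Fosb (chromosome 7, 19302696 to 19310051, minus strand), a FOS relative with a shorter splice form that lasts longer in stimulated neurons, stood at 1.70, 2.74 and 2.14 CPM in KO and at 2.23, 1.64 and 2.90 CPM in WT. Its groups overlapped throughout, and the log2 fold change was -0.039 ± 0.31 (SE, adjusted p = 0.973 in edgeR). With 36 to 61 reads per library its forms could not be resolved. Salmon gave 90.1% of Fosb reads to Fosb-201 in KO 1, and 84.1% in WT 2, but 0% in KO 3, WT 1 and WT 3, where Fosb-205 took 70.1, 66.7 and 82.8%.

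Jun (chromosome 4, 95049034 to 95052222, minus strand), which encodes c-Jun and has a single exon, stood at 71.4, 59.6 and 54.0 CPM in KO and at 70.1, 56.6 and 59.2 CPM in WT. KO 1 and WT 1 were the high libraries, and the groups covered nearly the same span. The log2 fold change was -0.0075 ± 0.13 (SE), with a 95% interval from -0.31 to 0.30 and an adjusted p of 0.988 in edgeR. Its sign turned under several settings.

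Junb (chromosome 8, 84974484 to 84978718, minus strand), whose protein can replace c-Jun in AP-1 and often restrains it, stood at 13.5, 13.7 and 13.4 CPM in KO and at 12.2, 9.90 and 11.2 CPM in WT. All KO libraries lay above all WT libraries. The coefficient of variation was 1.17% in KO and 10.3% in WT. KO 1 to 3 held only 286, 270 and 314 Junb reads, and a spread over 3 values is itself uncertain. Whether the spread differs between the groups was not tested. Junb had a log2 fold change of 0.29 ± 0.13 (SE), with a 95% interval from -0.0014 to 0.58 and an adjusted p of 0.398 in edgeR. Junb shares 173 exon bases with Prdx2, a peroxiredoxin gene on the opposite strand. Prdx2 stood at 99.2, 111 and 95.7 CPM in KO and at 121, 122 and 118 CPM in WT, so it lay in the other direction. The libraries were made with a kit that keeps the strand, per the labels' protocols, but the sources used here do not say whether reads were counted by strand. The part of Prdx2 reads in Junb was not tested. Jun also shares 232 exon bases with the antisense gene Junos, and Zfp36 shares 125 with Gm44710, and neither antisense gene was analysed here.

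Egr1 (chromosome 18, 34859823 to 34864984, plus strand), a zinc finger transcription factor induced through serum response factor, varied most. It stood at 44.1, 22.4 and 36.2 CPM in KO and at 31.0, 11.2 and 15.3 CPM in WT. WT 1 lay above KO 2, and the highest library, KO 1, had 3.93 times the CPM of the lowest, WT 2, against a median of 1.48 over the tested genes. Egr1 averaged 34.2 ± 11.02 CPM over KO libraries and 19.2 ± 10.5 CPM over WT libraries (SD, n = 3 each), with a coefficient of variation of 32.2% in KO and 54.5% in WT, where the median over the tested genes was 13.9% in KO and 10.4% in WT. The log2 fold change of 0.84 ± 0.38 (SE) was the largest of the members, with a 95% interval from -0.038 to 1.72 and an adjusted p of 0.419 in edgeR. Without WT 1 it was 1.37 and without WT 2 it was 0.56, neither of them called. The transcript Egr1-202 took between 89.0 and 91.8% of Egr1 reads in all 6 libraries.

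Nr4a1 (chromosome 15, 101254269 to 101274795, plus strand), an orphan nuclear receptor also called NUR77, stood at 10.4, 8.18 and 9.19 CPM in KO and at 7.82, 8.26 and 9.59 CPM in WT. The groups overlapped, and the log2 fold change was 0.11 ± 0.16 (SE, adjusted p = 0.814 in edgeR). In TPM, which follows Salmon's division of reads among its transcripts, its mean was 6.47 ± 1.59 TPM for KO and 5.19 ± 0.559 TPM for WT (SD, n = 3 each), a log2 ratio of 0.32. KO 1, at 8.28 TPM, was the highest library, and 2.42 TPM of that came from a transcript of 344 bases, Nr4a1-203, to which 6.76 reads were given.

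Atf3 (chromosome 1, 191170296 to 191218039, minus strand), a stress-induced factor of the ATF and CREB family, stood at 5.46, 3.66 and 4.53 CPM in KO and at 3.89, 4.53 and 3.56 CPM in WT. KO 1 was highest, and the other KO libraries lay within or at the edge of the WT range. KO over WT gave a log2 fold change of 0.19 ± 0.22 (SE, 95% interval from -0.31 to 0.69, adjusted p = 0.769 in edgeR), and without KO 1 it was 0.037.

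The remaining members act on RNA and on transcription. Zfp36 (chromosome 7, 28376784 to 28380253, minus strand), which encodes tristetraprolin, binds AU-rich letters and recruits deadenylases. It stood at 15.9, 16.3 and 18.3 CPM in KO and at 14.6, 12.8 and 13.2 CPM in WT. All KO libraries lay above all WT libraries, with the smallest gap between KO 1 and WT 1. In log2 terms KO exceeded WT by 0.32 ± 0.12 (SE), with a 95% interval from 0.040 to 0.59 and an adjusted p of 0.332 in edgeR. The transcript Zfp36-202 took 10.2, 26.6 and 23.7% of its reads in KO and 17.4, 12.8 and 16.5% in WT, so the groups overlapped in their use of it.

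Btg2 (chromosome 1, 134075170 to 134079120, minus strand), an antiproliferative gene and p53 target whose protein binds the CCR4-NOT deadenylase, stood at 43.7, 48.5 and 48.6 CPM in KO and at 45.0, 31.5 and 32.7 CPM in WT. WT 1 lay within the KO range while the other WT libraries lay well below it. For Btg2 the log2 fold change was 0.37 ± 0.15 (SE), with a 95% interval from 0.031 to 0.70 and an adjusted p of 0.353 in edgeR. Without WT 1 it was 0.55, and without WT 2 it was 0.27, with no call in either.

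Ier2 (chromosome 8, 84661331 to 84662852, minus strand) stood at 34.5, 27.2 and 32.2 CPM in KO and at 33.3, 23.5 and 30.3 CPM in WT. Each group had 1 low library, KO 2 and WT 2, and the groups overlapped. The log2 fold change was 0.11 ± 0.15 (SE, 95% interval from -0.24 to 0.46, adjusted p = 0.810 in edgeR).

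**Figure D3:**
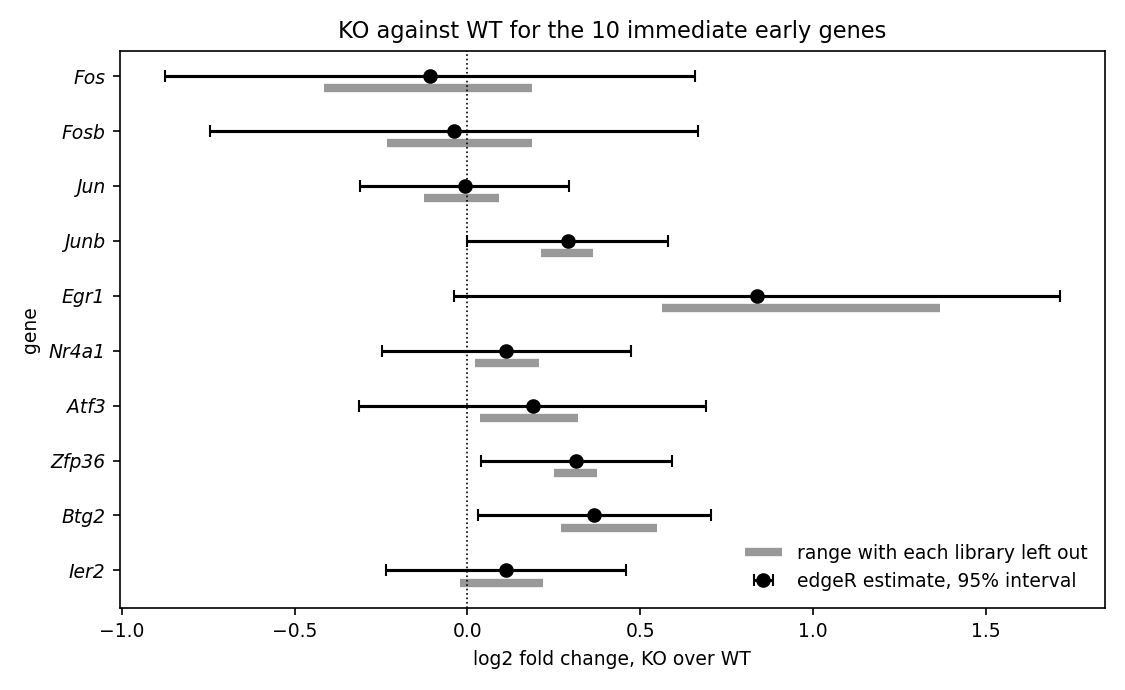
Log2 fold change of KO over WT for each immediate early gene, with its 95% interval (black) and the range of estimates with each library left out in turn (grey). The intervals of Zfp36 and Btg2 lie above 0, that of Egr1 is the widest, and those of Fos, Fosb, Jun, Nr4a1 and Ier2 are centred near 0.

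Libraries differed in these genes within each group. Relative to each gene's mean over the 6 libraries, the 10 members averaged 0.21, 0.000088 and 0.13 on the log2 scale in KO 1 to 3 and 0.11, -0.37 and -0.080 in WT 1 to 3. WT 1 thus lay between KO 2 and KO 3, and WT 2 stood lowest. KO 1 was the highest library for 5 members (Jun, Egr1, Nr4a1, Atf3 and Ier2) and lay above the gene mean for 9 of 10, Fosb being the exception. WT 2 was the lowest library for 7 members (Fos, Fosb, Junb, Egr1, Zfp36, Btg2 and Ier2) and lay above the mean for 1, Atf3. KO 1 is the library with the low Y-linked genes, and WT 1 the one with liver RNA. The part of sex or of liver RNA in the members' values was not tested.

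**Figure D4:**
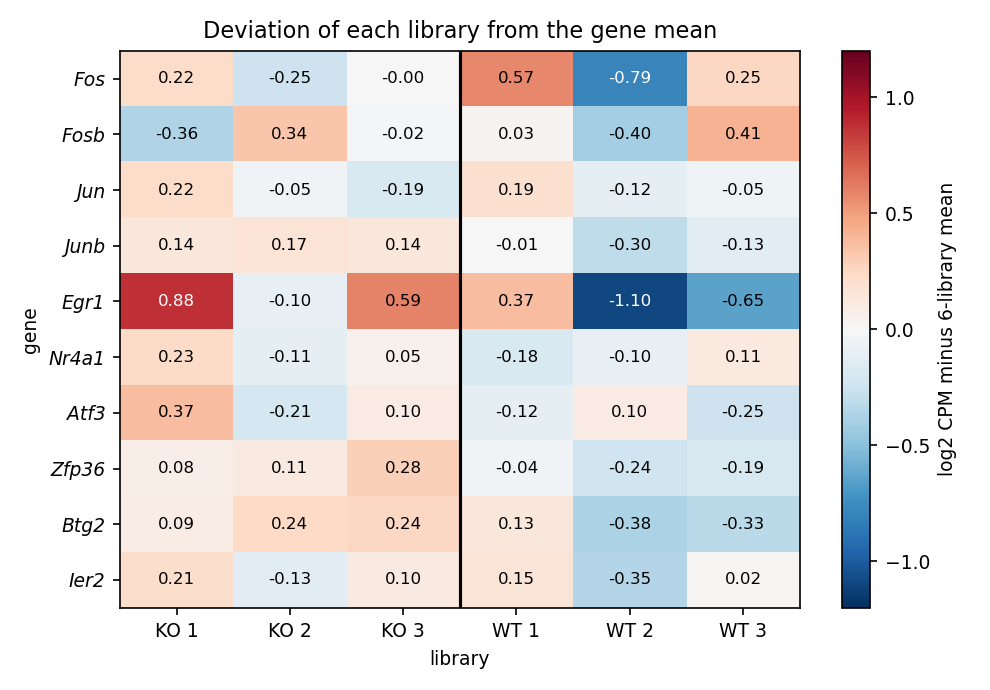
Log2 CPM of each immediate early gene in each library, minus the gene's mean over the 6 libraries, with KO left of the line and WT right of it. WT 2 is below the mean for 9 of 10 genes, KO 1 above it for 9 of 10, and Egr1 spans the widest range, with 0.88 in KO 1 and -1.10 in WT 2.

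The members did not all follow their own average. The root mean square distance between a member and the members' mean profile was smallest for Ier2, at 0.072, and Junb, at 0.094 on the log2 scale, and largest for Egr1, at 0.52, and Fosb, at 0.34. By the same measure, of 11752 other genes with a mean of at least 5 CPM, the 5 closest to that profile over the 6 libraries were Trim7 (0.047), Slc28a3 (0.055), Tmcc1 (0.056), Arhgef15 (0.061) and Ppp1r21 (0.062). None of these 5 is in the lists of immediate early genes used here. Trim7, the closest, stood at 6.50, 5.49 and 6.50 CPM in KO and at 5.83, 4.45 and 5.17 CPM in WT.

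Other immediate early genes were also uncalled. Of 44 listed, 42 passed the filter on low counts, all but Fosl1 and Egr4. Adjusted over all genes, 0 of 42 were called, where 0% of the tested genes were called. The mean was higher in KO for 30 and lower for 12, where 51.2% of the tested genes were higher. Their median log2 fold change was 0.21, against 0.0069 over the tested genes. The KO group lay wholly above the WT group for 9 of 42, against 9.07% of the tested genes, and wholly below for 4, against 10.3%. Klf4, a zinc finger factor also expressed in endothelium, had the smallest p and stood at 49.7, 45.5 and 50.2 CPM in KO and at 37.2, 35.2 and 30.7 CPM in WT. Klf10, a factor induced by TGF-beta, stood at 65.3, 57.3 and 66.4 CPM in KO and at 52.3, 39.6 and 33.7 CPM in WT. Both had separate groups, with log2 fold changes of 0.50 ± 0.10 and 0.59 ± 0.16 (SE) and adjusted p of 0.205 and 0.238 in edgeR. Dusp1, a phosphatase that shuts off MAP kinases, stood at 14.0, 16.1 and 16.3 CPM for KO and 11.8, 8.38 and 10.02 CPM for WT, also apart, with a log2 fold change of 0.62 ± 0.16 (SE, adjusted p = 0.221 in edgeR). Klf4, Klf10 and Dusp1 were named for having the smallest p of the 42, while the members were not picked by p. Their fold changes can therefore not be ranked against those of the members. Of the 42, 8 had an unadjusted p under 0.05 in edgeR with a higher value in KO and 2 with a lower value. The shares over the tested genes were 5.62% and 7%.

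Of the kinases and factors that act on these promoters 0 were called, where 0% of the tested genes were called. Of 33 genes, from Ras and MAP kinases to Srf, the ELK factors and CREB, 22 had a higher and 11 a lower mean in KO. Of the tested genes, 51.2% had a higher mean in KO. The median log2 fold change was 0.044, against 0.0069 over the tested genes. Srf, which binds the CArG box, stood at 20.1, 17.0 and 20.4 CPM in KO and at 16.9, 19.6 and 19.7 CPM in WT. Mrtfb, a coactivator of SRF, had the smallest p, with 54.8, 61.3 and 66.4 CPM in KO libraries and 51.4, 43.8 and 49.6 CPM in WT libraries, a log2 fold change of 0.34 ± 0.11 (SE, adjusted p = 0.268 in edgeR). Rps6ka2, a ribosomal S6 kinase downstream of ERK, had -0.30 ± 0.099 (SE, adjusted p = 0.276 in edgeR), and Crtc2, a CREB coactivator, 0.29 ± 0.13 (adjusted p = 0.406 in edgeR).

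Among partners of AP-1 and co-repressors of EGR proteins, 11 of 12 listed genes were tested, all but Batf2. Of these, 0 were called, against 0% of the tested genes, with 9 higher and 2 lower, against 51.2% higher. Their median log2 fold change was 0.25, against 0.0069 over the tested genes. Mafg, a small MAF protein, stood at 60.6, 69.0 and 59.1 CPM in KO and at 54.3, 50.3 and 49.4 CPM in WT, with groups apart and an adjusted p of 0.275 in edgeR. Atf7 and Mafk had log2 fold changes of 0.32 ± 0.12 and 0.49 ± 0.19 (SE), with adjusted p of 0.335 and 0.337 in edgeR. Among 22 genes of AU-rich element binding and deadenylation, the machinery with which ZFP36 and BTG2 work, 11 were higher and 11 lower, with a median of -0.0013. Here too 0 were called, against 0% of the tested genes. The smallest p belonged to Cnot9, a subunit of CCR4-NOT, at -0.31 ± 0.12, Hnrnpd, the AU-rich binding protein AUF1, at -0.31 ± 0.12, and Pan3, a deadenylase subunit, at 0.33 ± 0.14 (log2 fold change and SE, adjusted p of 0.336, 0.347 and 0.375 in edgeR).

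Heat shock genes, which rise with handling of tissue as immediate early genes do, were split. Of 12, 6 were higher and 6 lower, against 51.2% of the tested genes higher, with a median log2 fold change of -0.0083. None was called, against 0% of the tested genes. Hspb1 had 0.40 ± 0.15, Hsp90aa1 -0.30 ± 0.12 and Hspa1a, an inducible HSP70 gene, 0.45 ± 0.20 (SE, adjusted p of 0.325, 0.336 and 0.417 in edgeR).

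Markers of other cell types were set beside the members. The 10 endothelial genes, 9 of them with a higher mean in KO and none called, summed to 805, 837 and 851 CPM in KO and to 805, 709 and 706 CPM in WT, so that KO 1 and WT 1 were equal and the other WT libraries lower. The summed erythroid and neutrophil genes were highest in KO 2 and WT 1. Of the 8 liver genes, 7 were highest in WT 1, and Ttr, at 129, 195 and 139 CPM in KO libraries and 145, 161 and 163 CPM in WT libraries, was not. The 10 macrophage genes, 9 of them lower, summed to 611, 592 and 499.7 CPM in KO libraries and to 598, 609.9 and 593 CPM in WT libraries. The 8 mesenchyme genes summed to 9284, 6015 and 9680 CPM in KO and to 9463, 11516 and 9434 CPM in WT. The 8 beta cell genes summed to 4618, 4322 and 4626 CPM in KO and to 5502, 6660 and 5668 CPM in WT. In each of these lists 2 genes had a higher mean in KO and 6 a lower one. The higher ones were Pdgfra and Pdgfrb in mesenchyme and Slc30a8 and Slc2a2 in beta cells, so the sums do not speak for every gene. No listed marker was at 0 in all libraries, and none was called. The part of the cell mix in the members' values was not tested.

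**Figure D5:**
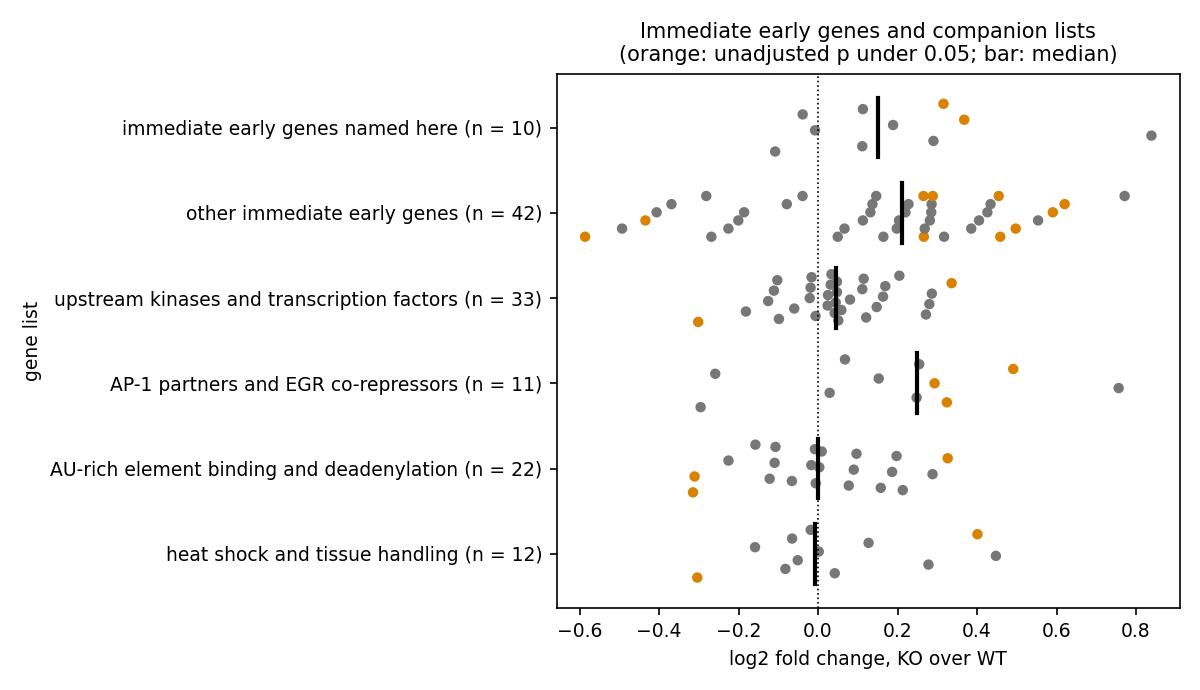
Log2 fold change of KO over WT for the 10 immediate early genes and for the tested genes of 5 related lists, with the median of each list as a black bar and genes with an unadjusted p under 0.05 in orange. The medians lie between -0.0083 and 0.25, and no gene passed adjustment.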

How the data were processed

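RNA from whole pancreas of 6 mice was sequenced with a stranded mRNA kit, per the labels' protocols. Per the submitters' processing notes, bcl2fastq, Salmon 0.13.1, DESeq2 1.24.0 and the build mm10 were used. For each library the authors deposited a Salmon output of 116248 transcripts, with estimated counts (not whole numbers), TPM and effective lengths. The sources used here do not name its transcript set. The table of 17324 genes that the authors deposited for the series holds a scaled signal, with 0.566 to 0.791% of values whole (tolerance 1e-06), so it entered 1 alternative only.

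By versioned identifier 115995 transcripts matched GENCODE M21. Each gene's counts are the rounded sum over its transcripts (pandas 2.3.3 under Python 3.11.15). Groups follow the genotype label, replicate numbers follow sample order and pair nothing. KO and WT were compared by quasi-likelihood (edgeR 4.0.16, R 4.3.3) after TMM scaling and the default filterByExpr, with Benjamini-Hochberg adjustment over all genes at 0.05, and the script was checked on simulated data. Errors are SDs or SEs. TPM was used for levels between genes only and in 1 alternative. With 3 against 3 libraries an exact permutation test cannot go below 0.1. The p-values set the difference between the groups against the spread between these mice, which edgeR estimates partly from all tested genes.

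The members and lists were chosen with earlier results of these data known. The rule for names took all 10 members, the 3 genes of each related list with the smallest p, and the 5 genes nearest to the members' mean profile. Srf, Prdx2, Fosl1, Egr4, Batf2 and single markers were named after their values were seen. Sequences are RefSeq's (GRCm38.p6). Alternatives were other size factors, filters, DESeq2 1.42.0, limma-voom (limma 3.58.1), a length offset, no enzyme genes, and libraries left out.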

Additional observations from a re-analysis of the deposited data

How the results depend on the processing

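No paired analysis was possible because the labels give no replicate numbers that the groups share. In 16 further fits, 0 of the 10 members were called, and the smallest adjusted p of any member was 0.259 (Btg2 without WT 1). Over all genes, where edgeR with 6 libraries called 0 in either direction and 889 higher and 1107 lower had an unadjusted p under 0.05, DESeq2 called 132 higher and 304 lower in KO, limma-voom called 1 and 1, edgeR with no filter called 0 and 1, and leaving out the pair KO 2 and WT 1 gave 1 and 1. With each library left out, calls ran from 0 to 87 higher and from 0 to 275 lower, the highest of both without KO 1, and 0 in both directions without any other.

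Junb, Egr1, Nr4a1, Atf3, Zfp36 and Btg2 kept a positive log2 fold change in all 17 alternatives, TPM included. Egr1 ran from 0.56 to 1.60 (the highest without the pair KO 2 and WT 1), Zfp36 from 0.25 to 0.40, Btg2 from 0.27 to 0.55 and Junb from 0.21 to 0.36. Nr4a1 ran from 0.023 to 0.32 and Atf3 from 0.037 to 0.32. Both were lowest, and close to 0, without KO 1. Fos, Fosb, Jun and Ier2 changed sign in some settings. Fos was 0.016 with limma-voom, 0.30 without the pair KO 2 and WT 1, and 0.014 with limma on the authors' scaled table, a setting chosen after seeing the data. Left out one library at a time, Fos ran from -0.42 to 0.19, Fosb from -0.23 to 0.19, Jun from -0.13 to 0.090 and Ier2 from -0.022 to 0.22. Fosb turned positive without KO 1 (0.11) and without WT 3 (0.19), Fos without WT 1 (0.19), and Ier2 turned negative without WT 2. Jun was 0.014 without KO 2, 0.080 without KO 3, 0.012 with the length offset, 0.11 without the pair, 0.0087 with the authors' table and 0.039 in TPM. The cause was not tested. Depth limits Fosb most, with 36 to 61 reads per library.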
